A study of Mus musculus with 3 samples.

Results

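The 7 mouse genes of the P2X receptor family, P2rx1 to P2rx7, were taken by symbol from the 41388 genes counted in each library, and all 7 were found. RNA came from dorsal root ganglia, which hold the cell bodies of the neurons for touch and pain, of mouse embryos at day 14.5. Cells were sorted for the fluorescence of a Ret-EGFP reporter, which marks cells that use the gene of the receptor tyrosine kinase Ret. The 3 libraries, labelled A, B and D, form 1 group of strain C57BL/6 and genotype Tg(Ret-EGFP)SJ, with no treatment described, and no cells without the reporter were analysed here. Library A pooled 100 ganglia of 5 embryos (3 male and 2 female), library B 100 ganglia of 6 embryos (2 male and 4 female) and library D 80 ganglia of 4 embryos (3 male and 1 female), all from levels T11 to S1. The design text describes heterozygotes with EGFP placed in the Ret locus, while the genotype label reads as a transgene, so the number of intact Ret alleles is not known. Each value below is a mean ± SD over the 3 libraries unless a library is named, and the SD covers differences between pools of embryos as well as technical noise.

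P2X receptors are cation channels in the cell membrane that open when ATP binds from outside. A channel is an assembly of P2X subunits, which may be of one kind or mixed, and the mixture sets how it responds. In sensory ganglia the subunits P2X2 and P2X3 are known from neurons that respond to ATP released by damaged or stretched tissue. P2X4, found in many tissues, and P2X7 are known from macrophages and microglia. P2X7 is also known from satellite glia, and P2X1 from platelets and smooth muscle.

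P2rx3 held nearly all of the family's RNA. The sequences below show how far reads from its coding part can be told from those of its relatives. Untranslated parts were not compared, and the coding sequence of P2rx3 has 1194 bases beside an exonic length of 2789. Among the longest coding sequences in GENCODE M21 (build GRCm38), P2rx3 shared between 61.8% and 65.5% of aligned bases with each of the other 6 members. The longest run of identical bases between P2rx3 and another member was 26 bases, with P2rx2. It covers bases 829 to 854 of the P2rx3 coding sequence, counted from 1 at the A of the start codon, and crosses an exon junction, with its ends at positions 85000739 and 85021742 of chromosome 2. In P2rx2 it covers bases 931 to 956 and lies between 110340938 and 110341114 of chromosome 5. The longest runs that P2rx3 shares with P2rx4 and with P2rx7, of 14 bases each, fall in the same stretch. They are printed because, among coding reads, those inside such runs are the ones that could be counted for the wrong member. Capitals mark the bases shared with P2rx3 without a break (in P2rx3, those shared with P2rx2), with 15 bases in lower case on each side.
P2rx3: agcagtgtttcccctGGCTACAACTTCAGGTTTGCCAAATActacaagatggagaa
P2rx2: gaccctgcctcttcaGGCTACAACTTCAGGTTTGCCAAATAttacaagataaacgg
P2rx4: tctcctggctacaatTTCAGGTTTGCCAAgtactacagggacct
P2rx7: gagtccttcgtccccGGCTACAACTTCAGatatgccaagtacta
The run shared with P2rx5 was 18 bases, that with P2rx6 14 bases and that with P2rx1 12 bases. Over all 21 pairs of coding sequences no run exceeded 26 bases, and identity ranged from 61.3% to 67.4%. The length of the reads is not given in the sources used here.

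The total count was 20181558 in library A, 20355302 in B and 29061086 in D. Genes were compared on the TPM scale, in which each count is divided by the deposited exonic length and the library is scaled to a fixed total. All 8 sensory neuron markers, led by Tubb3 and Stmn2, exceeded 1 TPM, and together they reached between 26948 and 31570 TPM in a library. Schwann and satellite glia markers summed to between 490 and 879 TPM, led by S100b and Fabp7. Erythroid markers summed to between 79.3 and 308 TPM, highest in D and led by Hbb-bs and Hbb-bt, whose reads may not be separable.

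P2rx3 (ENSMUSG00000027071, minus strand of chromosome 2, 84998583 to 85037462, build GRCm38.p2 here and below) encodes the subunit known from nociceptors, the neurons that detect harmful stimuli. It reached 432 TPM in library A, 346 in B and 299.6 in D, from 9145, 7683 and 10814 counts. The mean was 359 ± 67.4 TPM (SD, n = 3), rank 494 of 41388 genes, above 98.8% of them. Library A lay highest, whereas the lowest library depended on the scale. It was D on TPM, but B on CPM (counts scaled by the library total, without length) with TMM-adjusted library sizes, where the values were 449 in A, 362 in B and 394 in D. An exon of P2rx3 shares 51 bases, 1.83% of its length, with Ssrp1 on the opposite strand (117 ± 23.6 TPM), and reads from that stretch cannot be told apart without strand. In RNA from sorted pools, fewer cells with a transcript and less of it per cell cannot be told apart, here and for every value below.

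The family as a whole summed to 452, 366 and 311 TPM in libraries A, B and D, or 376 ± 70.9 TPM. P2rx3 held 95.8% of that sum in A, 94.5% in B and 96.4% in D (95.5% ± 0.982, SD, n = 3). By counts alone, without correction for length, its share was 95.7% in A (exact Clopper-Pearson 95% interval 95.3 to 96.1), 94.4% in B (93.9 to 94.9) and 96.5% in D (96.1 to 96.8). These intervals cover counting error only and treat each read as independent. No molecular identifiers are described, so reads copied in PCR cannot be told apart, and with such copies the intervals are too narrow. On that basis the intervals of the 3 libraries do not overlap, but those of A and D are barely apart. Before rounding, that of A ends at 96.107 and that of D starts at 96.145. Whether the shares differed beyond counting error once copied reads are allowed for was not tested. Within a library P2rx3 exceeded the other 6 members together 22.6-fold in A, 17.1-fold in B and 26.8-fold in D. The log2 ratio was 4.45 ± 0.33 and positive in 3 of 3 libraries (two-sided exact sign-flip permutation test, p = 0.25, the smallest that 3 libraries allow). None of the 10 ratios tested in this way can pass 0.05.

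**Figure D1:**
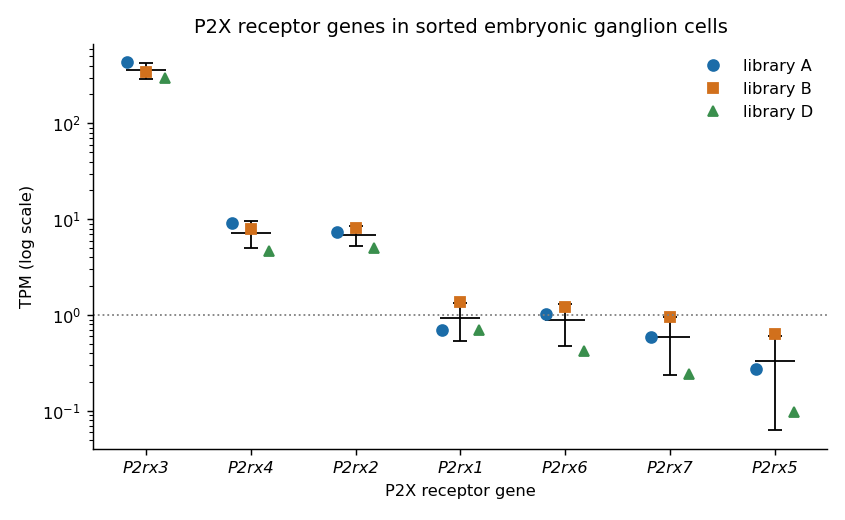
TPM (log axis) of the 7 P2X receptor genes in libraries A, B and D, ordered by mean, with the mean as a bar and the SD over 3 libraries as whiskers; the dotted line is 1 TPM. P2rx3 lies between 299.6 and 432 TPM, P2rx4 and P2rx2 overlap between 4.69 and 9.09 TPM, and the other 4 genes lie at or below 1.39 TPM.

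P2rx4 and P2rx2 followed at a level of about 7 TPM and could not be placed in order. P2rx4 (ENSMUSG00000029470, plus strand of chromosome 5, 122707584 to 122729738) encodes a subunit found in many tissues that traffics between lysosomes and the cell surface. It reached 9.09, 7.93 and 4.69 TPM in libraries A, B and D, from 228, 209 and 201 counts (mean 7.24 ± 2.28 TPM). P2rx2 (ENSMUSG00000029503, minus strand of chromosome 5, 110339812 to 110343035) encodes the subunit that joins P2X3 in mixed channels. It reached 7.42, 8.11 and 5.03 TPM in libraries A, B and D, from 108, 124 and 125 counts (mean 6.86 ± 1.62 TPM). Both were lowest in D on TPM, and their values overlapped.

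The log2 ratio of P2rx4 to P2rx2 was 0.05 ± 0.21, smaller than its spread, and positive in 1 of 3 libraries (exact sign-flip p = 1). It depended on the length used: without length correction it was 0.84, and with coding length in place of the deposited exonic length 1.20, positive in both cases. P2rx3 exceeded P2rx4 51.0-fold (log2 ratio 5.67 ± 0.29, 3 of 3 libraries, exact p = 0.25). Both pairs are neighbours in the order of mean TPM in these same libraries, so the sign of the mean is not independent of that choice. The partners P2rx2 and P2rx3 stood at a log2 ratio of -5.72 ± 0.27, which is 52.9-fold more P2rx3 than P2rx2, with values of -5.86 in A, -5.41 in B and -5.90 in D. It was -6.26 without length correction and -6.59 with coding length. P2rx2 RNA was thus scarce beside P2rx3 in every library, at between 1.62% and 2.22% of the family sum.

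**Figure D2:**
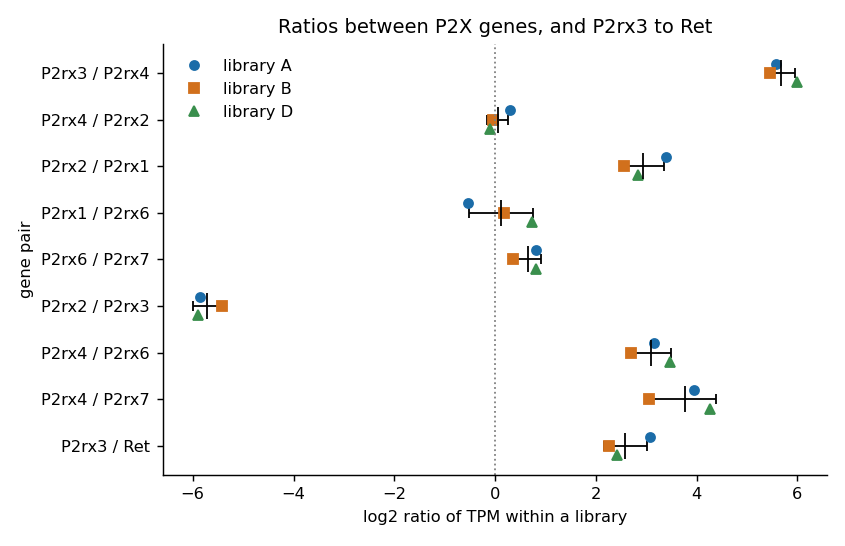
Log2 ratios of TPM within each library for neighbours in the order of levels, for pairs known to form mixed channels or to lie side by side in the genome, and for P2rx3 to Ret; bars are means and whiskers SDs over 3 libraries. P2rx4/P2rx2 and P2rx1/P2rx6 scatter on both sides of 0, while P2rx3/P2rx4 lies above 5.4 and P2rx2/P2rx3 below -5.4 in every library.

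The other 4 members were each near or below 1 TPM. P2rx1 (ENSMUSG00000020787, plus strand of chromosome 11, 72999103 to 73015200) encodes a fast-desensitising subunit known from smooth muscle and platelets. It had 14, 29 and 24 counts in A, B and D, or 0.703, 1.39 and 0.707 TPM. P2rx6 (ENSMUSG00000022758, plus strand of chromosome 16, 17561885 to 17577800) encodes a subunit that forms channels poorly on its own and joins P2X4 or P2X2. It had 31, 39 and 22 counts, or 1.02, 1.23 and 0.426 TPM. Library B was the highest for both genes, and the mean was 0.932 ± 0.394 TPM for P2rx1 and 0.892 ± 0.416 TPM for P2rx6.

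The count of P2rx6 carries a further uncertainty. Its exons share 554 bases, 13.9% of its exonic length, with Slc7a4, a gene of the cationic amino acid transporter family on the opposite strand. Slc7a4 had 863, 981 and 1357 counts (28.6 ± 2.30 TPM), far more than P2rx6. The use of strand in counting is not given in the sources used here, so reads from the shared bases cannot be assigned to one gene. The part of Slc7a4 reads in the P2rx6 counts was not tested.

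P2rx7 (ENSMUSG00000029468, plus strand of chromosome 5, 122643911 to 122691432) encodes a subunit that opens at high ATP and is known from immune cells and glia. It had 24, 41 and 17 counts in A, B and D, or 0.585, 0.952 and 0.243 TPM (mean 0.593 ± 0.355 TPM). Its exact Poisson 95% interval was 0.375 to 0.871 TPM in A, 0.683 to 1.29 in B and 0.142 to 0.389 in D. The intervals of B and D do not overlap, but they too treat each read as independent. P2rx5 (ENSMUSG00000005950, plus strand of chromosome 11, 73160421 to 73172685), whose subunit can join P2X1, was the lowest member. It had 5, 12 and 3 counts, or 0.275, 0.629 and 0.0968 TPM, and its interval in D ran from 0.0200 to 0.283 TPM. P2rx5 lay last and P2rx7 next to last in every library.

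Among these low members the order was only partly resolved. Neighbours were paired by the order of mean TPM in these same libraries, so their ratios and p-values are no independent support for that order. P2rx2 exceeded P2rx1, the next gene below it, 7.60-fold (log2 ratio 2.93 ± 0.43, 3 of 3 libraries, exact p = 0.25), with a log2 ratio of 2.16 by coding length. P2rx1 and P2rx6 were not separable, with a log2 ratio of 0.12 ± 0.64 that was -0.54 in A and 0.73 in D (exact p = 0.75) and turned to -0.48 without length correction. P2rx6 lay above P2rx7 in 3 of 3 libraries (log2 ratio 0.66 ± 0.26, exact p = 0.25), but the ratio was 0.22 without length correction, and the shared bases with Slc7a4 touch it too. Ratios to P2rx5 were not tested because it had fewer than 10 counts in A and D.

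P2rx4 and P2rx7 are neighbours on the same strand, with P2rx4 16151 bases downstream, yet P2rx4 exceeded P2rx7 13.6-fold (log2 ratio 3.76 ± 0.63, 3 of 3 libraries, exact p = 0.25). Without length correction this log2 ratio was 3.05. P2rx4 exceeded P2rx6, its partner in mixed channels, 8.59-fold (log2 ratio 3.10 ± 0.39, 3 of 3 libraries, exact p = 0.25). P2rx1 and P2rx5, also able to assemble together, lie on the same strand of chromosome 11 with 145220 bases between them, and both had means below 1 TPM. Promoter windows from RefSeq (GRCm38.p6, 250 bases before to 50 after a start) were matched for 4 members. The CG dinucleotide occurred 18 times in the window of P2rx4, 7 times in that of P2rx1, 3 times in that of P2rx6, and 8 and 4 times in the 2 windows of P2rx7. Among 32851 promoter windows, 29.7% held at least as many as P2rx4 and 48.7% at least as many as the richer P2rx7 window. P2rx2, P2rx3 and P2rx5 were not matched.

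Leaving P2rx3 aside, the 6 other members summed to 19.1, 20.2 and 11.2 TPM in libraries A, B and D (16.8 ± 4.92 TPM). P2rx4 held 42.9% ± 4.28 of this remainder and P2rx2 41.3% ± 3.22, together 84.2% ± 4.26. P2rx1 held 5.62% ± 1.70, P2rx6 5.07% ± 1.16, P2rx7 3.31% ± 1.29 and P2rx5 1.80% ± 1.17. The remainder was thus made up mainly of P2rx4 and P2rx2, in all 3 libraries.

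**Figure D3:**
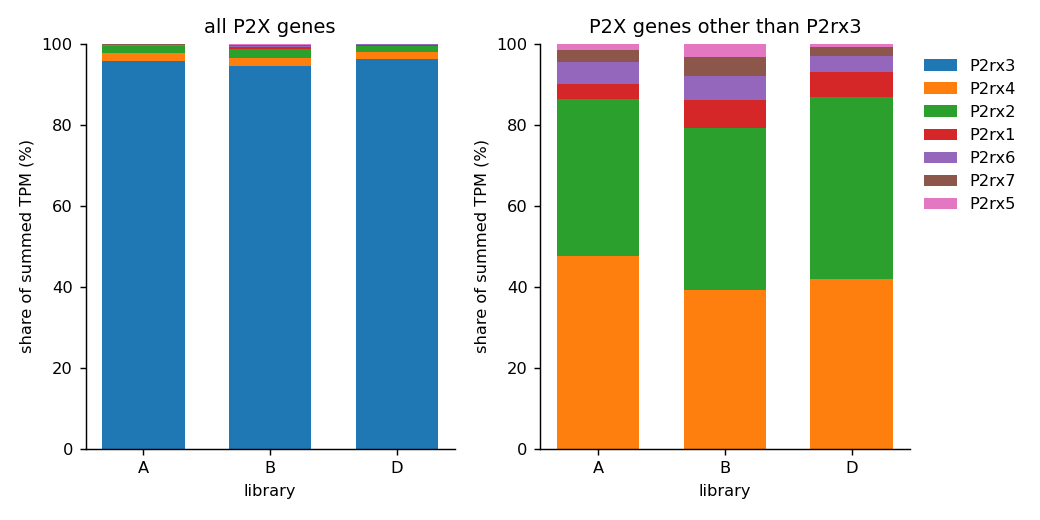
Share of summed TPM (%) of each P2X gene in libraries A, B and D, for the whole family (left) and without P2rx3 (right), 1 stacked bar per library. P2rx3 fills between 94.5% and 96.4% of the left bars, and P2rx4 with P2rx2 between 79.3% and 86.9% of the right bars.

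By the threshold of 1 TPM on average, 3 of 7 members were expressed (42.9%), P2rx3, P2rx4 and P2rx2, beside 33.6% of all genes and 56.2% of the genes with at least 1 count. The member median was 0.932 TPM, the value of P2rx1, beside 1.74 TPM over the genes with a count. P2rx1 and P2rx6 lay just under this threshold. At 0.5 TPM the number was 6, and without library D it was 5. Every member had counts in every library.

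None of the members was called as varying between the libraries beyond other genes of its level. Of the 7 members, 6 had enough counts to be tested (all but P2rx5), and 0 were called by edgeR's goodness-of-fit test with Benjamini-Hochberg adjustment over 13530 genes, where 0.177% of genes were called. None of the 6 had an unadjusted p under 0.05, as 6.11% of all tested genes did, and DESeq2 marked none as a dispersion outlier. The unadjusted edgeR p ranged from 0.145 for P2rx7 to 0.879 for P2rx2, and a p that misses the threshold does not show that the levels were equal.

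On the scale of TMM-adjusted CPM, P2rx3 had a coefficient of variation of 11% and P2rx2 of 12.3%, beside a median of 24.8% over all tested genes. P2rx4 stood at 20.8%, P2rx1 at 35.9%, P2rx6 at 38.3% and P2rx7 at 52.9%. The median spans genes of all levels and was not matched to the level of a member. On TPM the coefficient was 18.8% for P2rx3 and 23.6% for P2rx2. Counting error alone gives 1.04% at the depth of P2rx3 and 19.1% at that of P2rx7, so the low members are measured far less precisely. The log2 difference of P2rx7 from the mean of the other libraries was 1.09 in B and -1.18 in D, the widest of the 6. By TMM-adjusted CPM, P2rx1, P2rx2, P2rx6 and P2rx7 were highest in B, while P2rx3 and P2rx4 were highest in A.

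Markers of cell types known for the low members were measured beside them. Of 11 macrophage markers, 5 reached 1 TPM, led by C1qb (8.09 ± 3.12 TPM) and Tyrobp (4.10 ± 2.17 TPM), and the list summed to 29.4, 16.1 and 12.7 TPM in libraries A, B and D, with no marker at 0 in all libraries. The macrophage sum was highest in A. Whether P2rx4 or P2rx7 followed it over the 3 libraries was not tested. The glia list was lowest in A (490 TPM, against 785 in B and 879 in D). Of 5 platelet markers, 2 reached 1 TPM, Pf4 (2.43 ± 0.988 TPM) and Gp1bb (1.91 ± 0.536 TPM). The platelet list summed to 4.31, 3.64 and 6.80 TPM in libraries A, B and D. Smooth muscle and pericyte markers summed to 7.91, 10.3 and 8.14 TPM, led by Tagln and Pdgfrb, with 2 of 5 at 1 TPM. Of 7 skeletal muscle markers, 2 reached 1 TPM, Acta1 and Mylpf, and Myog had no counts. Of 6 endothelial markers 1 reached 1 TPM, Pecam1 (2.40 ± 0.769 TPM), and of 4 sympathetic neuron markers 2 did, led by Dbh (2.47 ± 1.35 TPM). The part of such cells in the levels of P2rx1, P2rx4 and P2rx7 was not tested.

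P2rx3 was also set against the other subunits of channels opened by a transmitter. Among 67 subunit genes of P2X, nicotinic, GABA-A, glycine, 5-HT3 and ionotropic glutamate receptors, P2rx3 ranked 1 in each library, by TPM, and 1 by mean CPM. It made up 37.7% of their summed mean TPM. Next by mean TPM came Htr3b, a serotonin receptor subunit (149.9 ± 32.6 TPM) and Grik1, a kainate receptor subunit (72.1 ± 24.3 TPM). By mean CPM they ranked 3 and 5, and by TPM Grik1 ranked 4 in A and in D. The mean of P2rx3 was 2.40-fold that of Htr3b, and the lowest library of P2rx3 (299.6 TPM) lay above the highest of Htr3b (174.6 TPM in B). P2rx4 ranked 15 and P2rx2 16 by mean TPM, and 19 and 23 by mean CPM. P2rx1, P2rx6, P2rx7 and P2rx5 ranked 34, 35, 41 and 46.

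**Figure D4:**
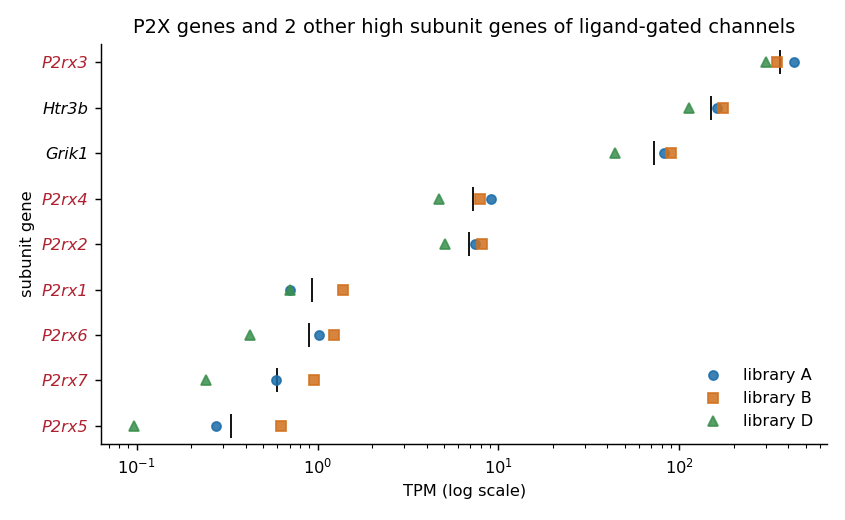
TPM (log axis) in libraries A, B and D of the 7 P2X genes (labelled in red) and of Htr3b and Grik1, out of 67 subunit genes of transmitter-gated ion channels, ordered by mean (vertical bar). P2rx3 lies to the right of Htr3b in every library, and the other P2X genes lie to the left of Grik1.

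P2rx3 is a known marker of non-peptidergic nociceptors, many of which depend on Ret after birth. It exceeded Ret 6.00-fold within libraries (log2 ratio 2.58 ± 0.43, 3 of 3 libraries, exact sign-flip p = 0.25), and without length correction the log2 ratio was 1.19. Cells were sorted on a Ret reporter and the state of the Ret alleles is not known, which touches the Ret side of this ratio. P2rx3 stood above all 10 listed genes of this class, of which Gfra2 (85.6 ± 25.8 TPM) and Gfra1 (81.4 ± 24.7 TPM), co-receptors of Ret, came next, and Lpar3, a lysophosphatidic acid receptor, was lowest, with 1, 3 and 3 counts.

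The protein-coding genes most like P2rx3 were found by the distance of log2(TPM + 0.1) over the 3 libraries, among 21396 candidates. They were Cd200 (distance 0.13), Prmt2 (0.16), Rtcb (0.17), Cct3 (0.17) and Tmeff2 (0.20). Cd200, an immunoglobulin-family membrane protein, stood at 406, 368 and 306 TPM in libraries A, B and D. Over only 3 libraries the measure reflects mainly a like mean level.

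Of 43 other genes of ATP and adenosine signalling in 6 lists, Pirt alone had a higher mean than P2rx3. Of these 43 genes, 27 reached 1 TPM (62.8%), beside 55.5% of protein-coding genes, and their median was 1.88 TPM beside 2.08 TPM. These shares are close, so the lists are not set apart from coding genes in general. Among the 7 P2Y receptors, the G protein-coupled receptors for nucleotides, 5 reached 1 TPM. P2ry2, a receptor for ATP and UTP, led at 6.59, 10.8 and 2.88 TPM in A, B and D (6.76 ± 3.96 TPM). P2ry6, a UDP receptor, reached 3.78 ± 0.432 TPM and P2ry1, an ADP receptor, 2.96 ± 0.438 TPM, while P2ry4 had 1 count in A and none in B or D. The highest P2Y gene was thus at the level of P2rx4 and P2rx2.

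Adenosine receptors were scarcer, with 1 of 4 at 1 TPM. Adora1, the inhibitory receptor known from pain pathways, reached 1.04 ± 0.558 TPM, Adora2b 0.692 ± 0.370 TPM and Adora2a 0.129 ± 0.0470 TPM. Adora1 passed 1 TPM in B alone (0.958, 1.63 and 0.521 TPM in A, B and D). Adora3 had no counts, which allows up to 0.149, 0.147 and 0.103 CPM in libraries A, B and D (3 counts per library).

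Ectonucleotidases, which break down ATP outside the cell and so end P2X signals, had 5 of 9 members at 1 TPM. Entpd2, which turns ATP into ADP, led at 17.0, 26.7 and 20.1 TPM (21.3 ± 4.98 TPM). Acpp, the prostatic acid phosphatase that makes adenosine from AMP in nociceptors, reached 4.05 ± 2.04 TPM and Alpl, an alkaline phosphatase, 2.62 ± 1.41 TPM. Entpd8 had no counts in any library. Entpd2 is also known from Schwann and satellite glia, whose markers were present, and their part in its level was not tested.

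Of 9 genes for channels or transporters linked to ATP release, 5 reached 1 TPM. Lrrc8a, the required subunit of volume-regulated anion channels, led at 142 ± 38.3 TPM, followed by the connexin gene Gja1 (20.8 ± 7.66 TPM) and the pannexin gene Panx1 (15 ± 3.28 TPM). Panx3 and Calhm1 had no counts. Slc17a9, which encodes the vesicular nucleotide transporter and was singled out after its values were seen, had 5, 4 and 3 counts (0.145 ± 0.0676 TPM). Of 8 genes for adenosine transport and metabolism, 5 reached 1 TPM, led by Adk, adenosine kinase (101.5 ± 12.7 TPM), Slc29a2 (15.4 ± 3.16 TPM) and Slc29a3 (10.6 ± 0.745 TPM), both equilibrative nucleoside transporters. Slc28a3, a concentrative transporter, was lowest by mean TPM (0.0221), with 3, 1 and 0 counts, though Slc28a1 had fewer counts (0, 1 and 1).

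All 6 genes listed as reported partners of P2X proteins reached 1 TPM, beside 55.5% of protein-coding genes. The list is short and was chosen with earlier results of these data known. Pirt, a membrane protein of sensory neurons reported to dampen P2X3, reached 478, 399 and 356 TPM in libraries A, B and D (411 ± 62.2 TPM). Cdk5, a neuronal kinase, stood at 288 ± 11.7 TPM and Apbb1, an adapter reported to bind P2X2, at 271 ± 96.0 TPM. Vsnl1, a calcium sensor also reported to bind P2X2, was lowest at 8.23 ± 1.68 TPM. Pirt lay above P2rx3 in every library, and the other 5 genes lay below it.

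**Figure D5:**
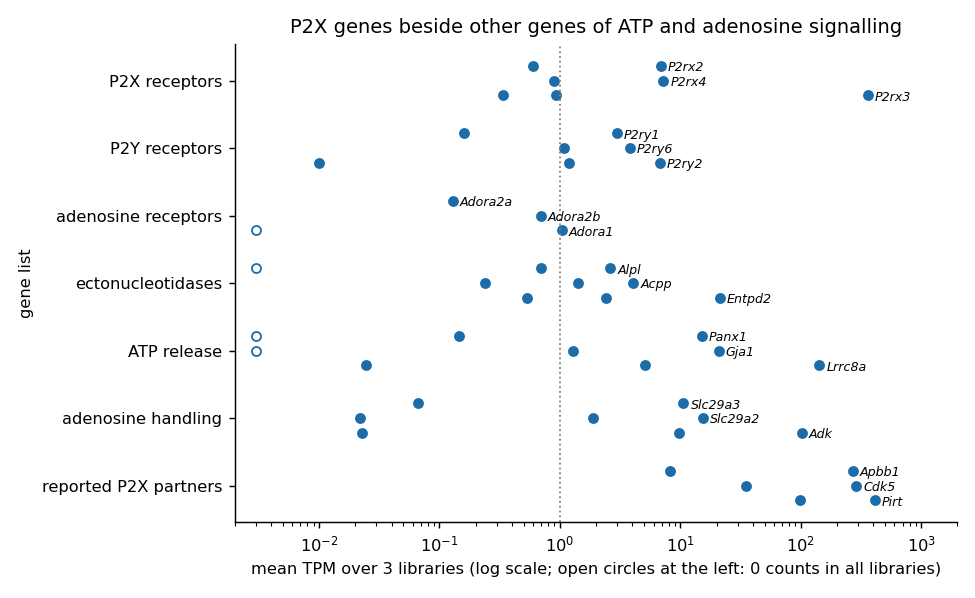
Mean TPM over 3 libraries (log axis) of the P2X genes and of 43 other genes of ATP and adenosine signalling, 1 point per gene and 1 row per list, with the highest genes named; open circles at the left edge had no counts in any library, and the dotted line is 1 TPM. P2rx3 (359 TPM) lies above every gene of the other lists except Pirt (411 TPM).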

How the data were processed

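The authors deposited 1 table per library with whole-number counts per Ensembl gene, CPM (counts scaled by the library's total) and RPKM (that CPM per kilobase of exonic length), per the file headers and the values. The deposited tables list 41388 genes. Subread, featureCounts 1.4.5 and build GRCm38.p2 are named in the submitters' processing notes, without settings. How strand and multimapping reads were handled is not given here.

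Symbols came from a supplied table of Ensembl names (40254 genes matched), and exons and coding sequences from GENCODE M21. TPM was computed from the deposited counts and lengths, and deposited CPM and RPKM served only as a check. Replicates are pools of embryos, so the pool is the unit of each test. The sign-flip p rests on the signs and relative sizes of 3 ratios and does not measure the spread between pools. The edgeR p sets the variation of a gene against the dispersion of genes at its level. Ratios within libraries were tested by exact permutation of their signs (two-sided) where both genes had at least 10 counts in every library. Pairs of neighbours were taken from the order of mean TPM in the same libraries. Variation between libraries was tested in edgeR 4.0.16 (R 4.3.3): TMM, filterByExpr, intercept-only fit, trended dispersion, deviance goodness of fit with 2 degrees of freedom, Benjamini-Hochberg adjustment at 0.05. This test was run on simulated data with changes placed only in genes at 10 CPM or more. Of the members, only P2rx3 lay at that level, so the simulation does not cover the others. The quasi-likelihood test needs 2 groups. DESeq2 1.42.0 gave dispersion outliers as an alternative. Python 3.11.15, pandas 2.3.3, scipy 1.17.1 and Biopython 1.88 did the rest.

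All members are named. Named besides were the 3 highest, the lowest and all zero-count genes of each list of ATP and adenosine signalling, the 3 channel subunits below P2rx3, the 5 genes nearest to P2rx3 and the leading markers, of which 1 channel subunit and 1 marker are not reported here. Members and lists were chosen with earlier results of these data known.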

Additional observations from a re-analysis of the deposited data

How the results depend on the processing

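The share of P2rx3, its ratio to the other members, the family total and its rank among channel subunits kept their direction and moved by less than the spread between libraries under every alternative run for each. CPM or counts and leaving out each library were run for all 4, and coding length for the share and the ratio alone. Counts by threshold moved: 6 members passed at 0.5 TPM and 6 with at least 10 counts in every library, against 3 at 1 TPM, and between 3 and 5 when a library was left out (5 without D). Of the 43 signalling genes, 16 reached 5 TPM, against 27 at 1 TPM. With a library left out, between 24 (without B) and 27 (without D) reached 1 TPM. The log2 ratio of P2rx4 to P2rx2 was -0.067 without A, and ranged from -0.067 to 0.13 when a library was left out. That of P2rx1 to P2rx6 was -0.48 as CPM, -0.52 with coding length, and ranged from -0.18 (without D) to 0.45. Genes that varied between libraries numbered 24, from 2 (without B) or 7 (without A) to 27 (without D) with a library left out, and 4 by DESeq2 dispersion outliers. In 8 edgeR settings 0 members were called. Coding lengths from GENCODE and TMM-adjusted CPM of the family were added after the data were seen. Coding lengths from RefSeq proteins were not run. Low counts limit P2rx1, P2rx5, P2rx6 and P2rx7.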
